A study of Arabidopsis with 12 samples.

Results

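Autophagy genes were followed in whole Arabidopsis seedlings of 3 genotypes, with and without methyl jasmonate (MeJA). They were taken by symbol: every probe set whose single gene symbol in the platform annotation starts with ATG and a digit. This gave 8 genes of 13356 named ones, each measured by 1 probe set: ATG8B, ATG8C, ATG8D, ATG8E, ATG8F, ATG8G, ATG8H and ATG3. Autophagy genes that the annotation lists under another symbol or by locus code only, such as ATG8a (there APG8A), are outside this rule and are given separately. The 6 groups were ein3 eil1 with MeJA, ein3 eil1 mock, coi1-2 with MeJA, coi1-2 mock, Col-0 with MeJA and Col-0 mock, each with 2 ATH1 arrays, 12 in all. Col-0 is the wild type, coi1-2 carries a mutation in COI1, and ein3 eil1 is a double mutant of EIN3 and EIL1, all in the Columbia background. The seedlings were 7 days old, had grown on MS medium at 23 °C in long days, and received 100 µM MeJA or its ethanol solvent (mock) for 4 h. The series asks how far jasmonate-regulated transcripts depend on COI1 or on EIN3 and EIL1.

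Autophagy carries cytoplasm and organelles to the vacuole for breakdown, and plants use it to recycle nutrients in starvation and leaf senescence. ATG8 is a small ubiquitin-like protein that is fixed to a lipid of the growing autophagosome membrane. There it helps the membrane to close and holds cargo receptors. The protease ATG4 trims its end, ATG7 activates it, and ATG3 is the E2-like enzyme that passes it to the lipid. Arabidopsis has a family of ATG8 genes, and the proteins of ATG8H and ATG8I are known to end in the reactive glycine without trimming. COI1 is an F-box protein that perceives jasmonate, while EIN3 and EIL1 are the transcription factors through which ethylene acts.

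Values are log2 expression levels as deposited, so a difference of 1 is a doubling. A gene was called where limma's p, adjusted over all 22589 features by the Benjamini-Hochberg method, was under 0.05. With 2 arrays per group precision is limited. Nothing in the labels ties the replicates to separate cultures, and the p-values therefore cover the spread among these arrays alone, which may be technical. Levels of different probe sets are not compared with each other. EIN3 was between 5.91 and 6.25 on the 4 ein3 eil1 arrays and between 9.26 and 9.59 on the other 8, so those arrays carry the lower EIN3 level of their label. COI1 was not analysed here, so the coi1-2 labels had no such check. Of the markers listed for shoot and root, 2 of 4 shoot genes (RCA and LHCB4.2, both of photosynthesis) and 1 of 5 root genes (EXPA7, a root hair expansin) had a named probe set, and all 3 were above the array median on every array. The 8 ATG genes were also above the array median on all 12 arrays.

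The widest differences among the ATG8 genes lay between the mutant genotypes. ATG8E was highest in coi1-2 and lowest in ein3 eil1. It was at 9.01 and 9.24 in ein3 eil1 with MeJA, against 9.60 and 9.33 in ein3 eil1 mock. In coi1-2 it was at 10.34 and 10.17 with MeJA, against 10.49 and 10.73 under mock. In Col-0 it was at 9.67 and 9.51 with MeJA, against 9.91 and 9.65 under mock. Every coi1-2 array was above every array of the other genotypes, and 3 of the 4 ein3 eil1 arrays were below every Col-0 array, the exception being ein3 eil1 mock replicate 1. From high to low the group means were 10.61 ± 0.17 (coi1-2 mock), 10.26 ± 0.12 (coi1-2 MeJA), 9.78 ± 0.19 (Col-0 mock), 9.59 ± 0.12 (Col-0 MeJA), 9.47 ± 0.19 (ein3 eil1 mock) and 9.12 ± 0.17 (ein3 eil1 MeJA; SD, n = 2 each). In whole seedlings fewer cells of a type and less RNA per cell cannot be told apart. None of the 5 neighbouring pairs in this order passed the test, the closest being coi1-2 MeJA above Col-0 mock (0.48 ± 0.16, SE, adjusted p = 0.067).

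ATG8B had the same order of genotypes and the widest range of group means among the 8, 1.69 on the log2 scale. It was at 6.99 and 7.73 in ein3 eil1 with MeJA, against 7.65 and 7.09 in ein3 eil1 mock. In coi1-2 it was at 8.84 and 8.995 with MeJA, against 9.13 and 8.98 under mock. In Col-0 it was at 8.09 and 8.02 with MeJA, against 8.03 and 8.15 under mock. The genotypes did not overlap on any array. In the order of its groups the step between coi1-2 MeJA and Col-0 mock passed the test (0.83 ± 0.22, SE, adjusted p = 0.0278), and the other 4 steps did not. The 2 arrays of each ein3 eil1 group stood further apart than those of the other groups, with SDs of 0.52 and 0.40 against 0.05 to 0.11.

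ATG8H was the only gene of the 8 called higher with MeJA in Col-0, a count near the background, with limits given below. It was at 7.82 and 8.47 in ein3 eil1 with MeJA, against 8.04 and 8.01 in ein3 eil1 mock. In coi1-2 it was at 9.16 and 8.96 with MeJA, against 8.93 and 8.96 under mock. In Col-0 it was at 8.97 and 8.99 with MeJA, against 8.22 and 8.21 under mock. Its 6 groups fell into an upper set, holding both coi1-2 groups and Col-0 with MeJA (means 8.94 to 9.06), and a lower set, holding both ein3 eil1 groups and Col-0 mock (8.02 to 8.22). The step between these sets, coi1-2 mock above Col-0 mock, was the single neighbouring pair that passed (0.73 ± 0.18, SE, adjusted p = 0.0154).

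**Figure D1:**
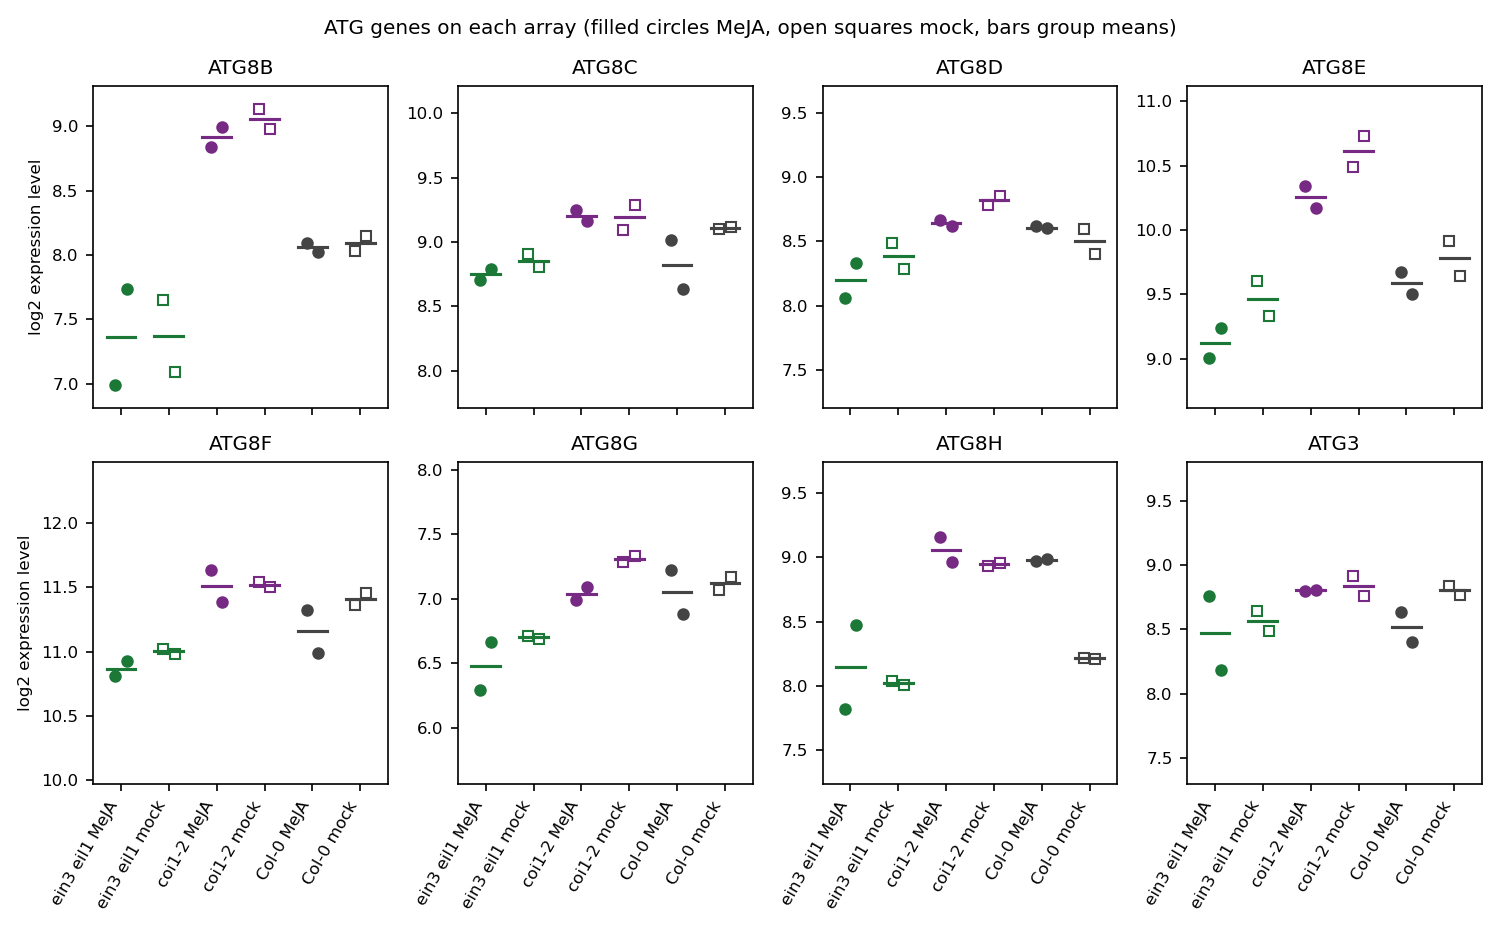
Log2 expression level of the 8 ATG genes on each of 12 arrays, by group, with filled circles for MeJA, open squares for mock and bars for the means of 2 arrays. The panels span the same number of log2 units and have different centres. ATG8B and ATG8E are highest in coi1-2 and lowest in ein3 eil1, and ATG8H in Col-0 is at 8.97 and 8.99 with MeJA, against 8.22 and 8.21 under mock.

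The other ATG8 genes and ATG3 moved less. ATG8F was between 10.81 and 11.02 on the ein3 eil1 arrays, between 11.39 and 11.64 on the coi1-2 arrays and between 10.99 and 11.45 on the Col-0 arrays. ATG8G was between 6.29 and 6.71 in ein3 eil1, between 6.99 and 7.34 in coi1-2 and between 6.88 and 7.22 in Col-0. In ATG8G all 4 ein3 eil1 arrays were below all 8 others, and in ATG8F the ein3 eil1 and coi1-2 arrays did not overlap. ATG8C was between 8.70 and 8.90 in ein3 eil1, between 9.10 and 9.29 in coi1-2 and between 8.63 and 9.12 in Col-0. ATG8D was between 8.06 and 8.48 in ein3 eil1, between 8.62 and 8.86 in coi1-2 and between 8.40 and 8.62 in Col-0. For ATG8C and ATG8D too, every coi1-2 array was above every ein3 eil1 array. How many of all features separate the genotypes without overlap was not counted. Between coi1-2 and ein3 eil1 12.9% of all features were called in either direction under mock and 18% with MeJA. ATG3, the conjugating enzyme, was between 8.18 and 8.76 in ein3 eil1, between 8.76 and 8.91 in coi1-2 and between 8.40 and 8.84 in Col-0. Its arrays separated the mutants as well, by a narrow margin (8.758 on the lowest coi1-2 array, 8.756 on the highest ein3 eil1 array). The Col-0 range of ATG3 overlapped those of both mutants, and no neighbouring pair of its groups passed the test. The range of the group means of ATG3 (0.37) was below that of most features (percentile 42.7), while the ranges of ATG8E and ATG8B were at percentiles 93.7 and 95.2.

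The first question was whether MeJA changed these genes in each genotype. In Col-0, MeJA raised ATG8H by 0.77 ± 0.18 on the log2 scale (SE, adjusted p = 0.0174), or 1.7-fold, with 2 arrays in each group. It was the only called gene of the 8. Of all features 4.56% were called higher, and 8.23% of those above the median level, where all 8 genes lie. The count of 1 is near the background. The other 7 had differences between −0.29 (ATG3) and 0.11 (ATG8D), with 95% intervals that together ran from −0.66 to 0.46. The ATG8H call was lost on leaving out any 1 of the 4 Col-0 arrays (adjusted p = 0.0813 to 0.0929), with differences of 0.76 to 0.77. The median difference over the 8 genes was −0.13, against −0.03 over all features.

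In coi1-2, limma called 0 of the 8 genes between MeJA and mock, against 2.56% of all features. In ein3 eil1 it also called 0, against 4.29% of all features. In each mutant 1 gene had an unadjusted p under 0.05, a threshold at which all features were not counted. That gene was ATG8E each time, with −0.36 ± 0.16 in coi1-2 (SE, adjusted p = 0.401) and −0.34 ± 0.16 in ein3 eil1 (adjusted p = 0.308). Both MeJA arrays of ATG8E were below both mock arrays in these mutants, while in Col-0 the treatments overlapped (−0.19 ± 0.16, adjusted p = 0.603). How many of all features separate the treatments in this way was not counted. The ATG8E response in the mutants was not shown to differ from that in Col-0. The limma difference of responses was −0.16 ± 0.22 for coi1-2 (SE, adjusted p = 0.908) and −0.15 ± 0.22 for ein3 eil1 (adjusted p = 0.82). ATG8H differed between MeJA and mock by 0.11 ± 0.18 in coi1-2 (adjusted p = 0.909) and by 0.12 ± 0.18 in ein3 eil1 (adjusted p = 0.812).

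**Figure D2:**
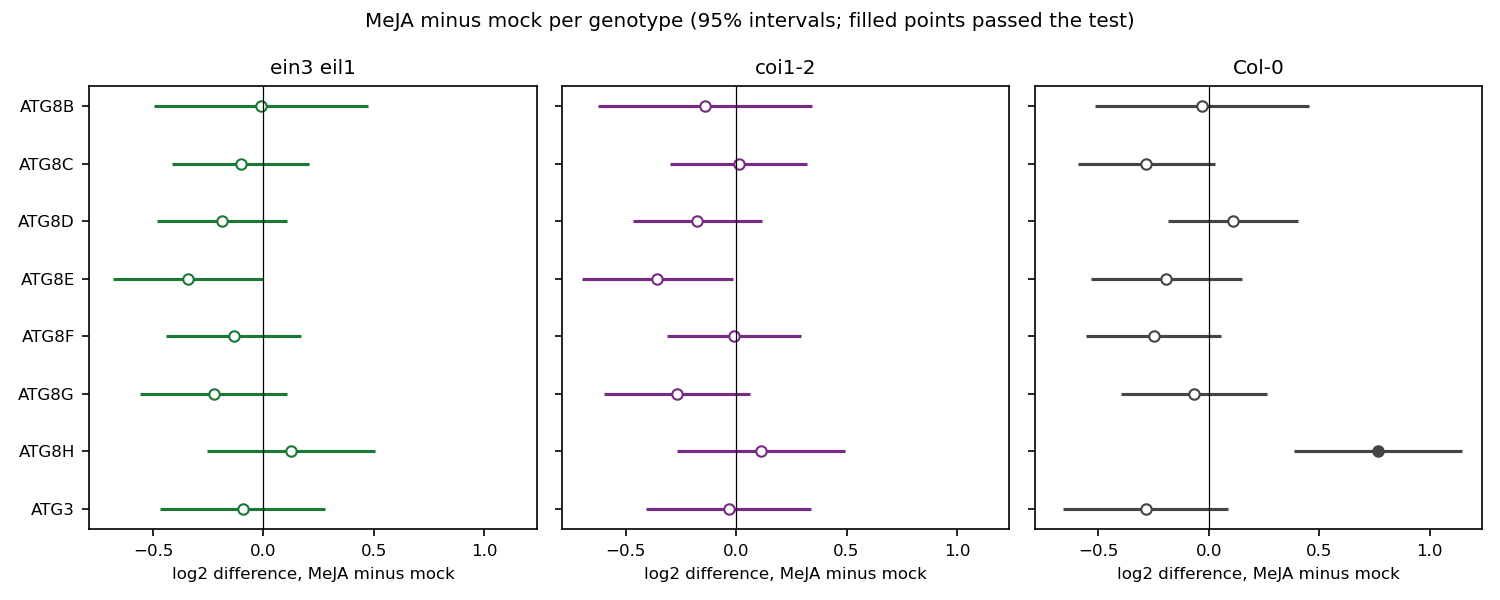
Log2 difference between MeJA and mock for each ATG gene in ein3 eil1, coi1-2 and Col-0, with unadjusted 95% intervals from limma (n = 2 arrays per group). The filled point, ATG8H in Col-0 at 0.77, passed the test, and the open points did not.

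Whether the responses differed between genotypes was tested by the interaction of genotype and MeJA. In limma 0 of the 8 genes passed for coi1-2 against Col-0, against 1.17% of all features. For ein3 eil1 against Col-0 0 passed as well, against 1.81% of all features. In each comparison 1 gene had an unadjusted p under 0.05, a threshold at which all features were not counted. ATG8H was that gene in both. Its response was lower than in Col-0 by −0.65 ± 0.25 in coi1-2 (log2 difference of responses, SE, 95% interval −1.19 to −0.11, adjusted p = 0.343). In ein3 eil1 it was lower by −0.64 ± 0.25 (95% interval −1.18 to −0.10, adjusted p = 0.261). Both differences use the same Col-0 arrays. The second was −0.97 without ein3 eil1 MeJA replicate 2, the array on which ATG8H was at 8.47. It was −0.31 without replicate 1 of that group, on which ATG8H was at 7.82. Each of these fits leaves 1 array in the group, so neither can decide whether the responses differ. ATG8H in coi1-2 under mock, at 8.93 and 8.96, lay beside Col-0 with MeJA, at 8.97 and 8.99.

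The mutants were then set against Col-0 under the same treatment. Under mock, coi1-2 had higher levels of ATG8B, ATG8E and ATG8H, 3 of 8, against 7.42% of all features called higher. Of the features above the median level 12% were called higher. ATG8B was 0.97 ± 0.22 higher (log2, SE, n = 2 per group, 1.95-fold, adjusted p = 0.0124), ATG8E 0.83 ± 0.16 (1.78-fold, adjusted p = 0.00361) and ATG8H 0.73 ± 0.18 (1.66-fold, adjusted p = 0.0154). The other 5 had differences of 0.03 (ATG3) to 0.32 (ATG8D) that did not pass. The median over the 8 was 0.25, against −0.03 over all features. The ATG8E call held without each single array of the contrast. That of ATG8B was lost without Col-0 mock replicate 1 (adjusted p = 0.0781) or coi1-2 mock replicate 1 (0.0753), and that of ATG8H without any 1 of the 4 arrays (0.0621 to 0.08).

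With MeJA, coi1-2 was above Col-0 in ATG8B (0.86 ± 0.22, SE, adjusted p = 0.0355) and ATG8E (0.67 ± 0.16, adjusted p = 0.0205), 2 of 8. Of all features 4.19% were called higher, and 6.94% of those above the median level. ATG8H, called higher with MeJA than under mock in Col-0, then stood 0.08 ± 0.18 above Col-0 in coi1-2 (adjusted p = 0.905). The ATG8B call was lost without any 1 of the 4 arrays (adjusted p = 0.0964 to 0.205). The ATG8E call was lost without Col-0 MeJA replicate 2 (adjusted p = 0.182) and without either coi1-2 MeJA array (0.182 for replicate 1, 0.0651 for replicate 2). Averaged over both treatments, with 4 arrays per genotype, ATG8B was 0.91 ± 0.16 higher in coi1-2 than in Col-0 (adjusted p = 0.0014) and ATG8E 0.75 ± 0.11 (adjusted p = 0.000446), and both calls held under every alternative tried. ATG8H (0.40 ± 0.12, adjusted p = 0.0384) was the third of 3 called higher, against 10.2% of all features, and lost its call without any 1 of the 8 arrays (adjusted p = 0.0588 to 0.144). Over both treatments 16.4% of features above the median level were called higher in coi1-2. The average over treatments and the comparison of the mutants with each other were added after the levels had been seen.

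In ein3 eil1 the ATG genes were lower than in Col-0 where they were called. Under mock limma called 0 of 8, against 3.2% of all features called lower and 4.52% of those above the median level. At an unadjusted p under 0.05 were 3 (ATG8B, ATG8F and ATG8G), a threshold at which all features were not counted. These 3 were at −0.72 ± 0.22 (SE, adjusted p = 0.0672), −0.40 ± 0.14 (0.0994) and −0.42 ± 0.15 (0.122). All 8 fitted differences were below 0, with a median of −0.28 against −0.03 over all features. With MeJA, ATG8H (−0.83 ± 0.18, adjusted p = 0.0142) and ATG8G (−0.58 ± 0.15, adjusted p = 0.0475) were called, 2 of 8. Of all features 2.56% were called lower, and 4.52% of those above the median level.

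Both of those calls were lost on leaving out some of the arrays. Without Col-0 MeJA replicate 1 or 2, ATG8H kept its difference (−0.84 and −0.82) at an adjusted p of 0.0804 and 0.079. Without ein3 eil1 MeJA replicate 1 the ATG8H difference was −0.51 (adjusted p = 0.0724), and without replicate 2 of that group it was −1.16 (adjusted p = 0.000673). ATG8G was at −0.41 without Col-0 MeJA replicate 1 (adjusted p = 0.326) and at −0.39 without ein3 eil1 MeJA replicate 1 (adjusted p = 0.269). In the fit with the replicate number as a block ATG8G had an adjusted p = 0.0593. ATG8B, at −0.70 and not called in the main fit with MeJA, was at −1.07 without ein3 eil1 MeJA replicate 2 and at −0.33 without replicate 1. Averaged over both treatments, 5 of 8 were lower in ein3 eil1 than in Col-0, against 4.92% of all features and 8.13% of those above the median level. ATG8B was at −0.71 ± 0.16 (adjusted p = 0.0103), ATG8H at −0.51 ± 0.12 (0.0166), ATG8G at −0.50 ± 0.11 (0.00873), ATG8E at −0.39 ± 0.11 (0.0379) and ATG8F at −0.35 ± 0.10 (0.0383). The ATG8G call held without each single array. The count of 5 was 1 when ein3 eil1 mock replicate 2 was left out, 2 when Col-0 mock replicate 1 was, 3 for ein3 eil1 MeJA replicate 1 or Col-0 MeJA replicate 1, and 4 for each other array.

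**Figure D3:**
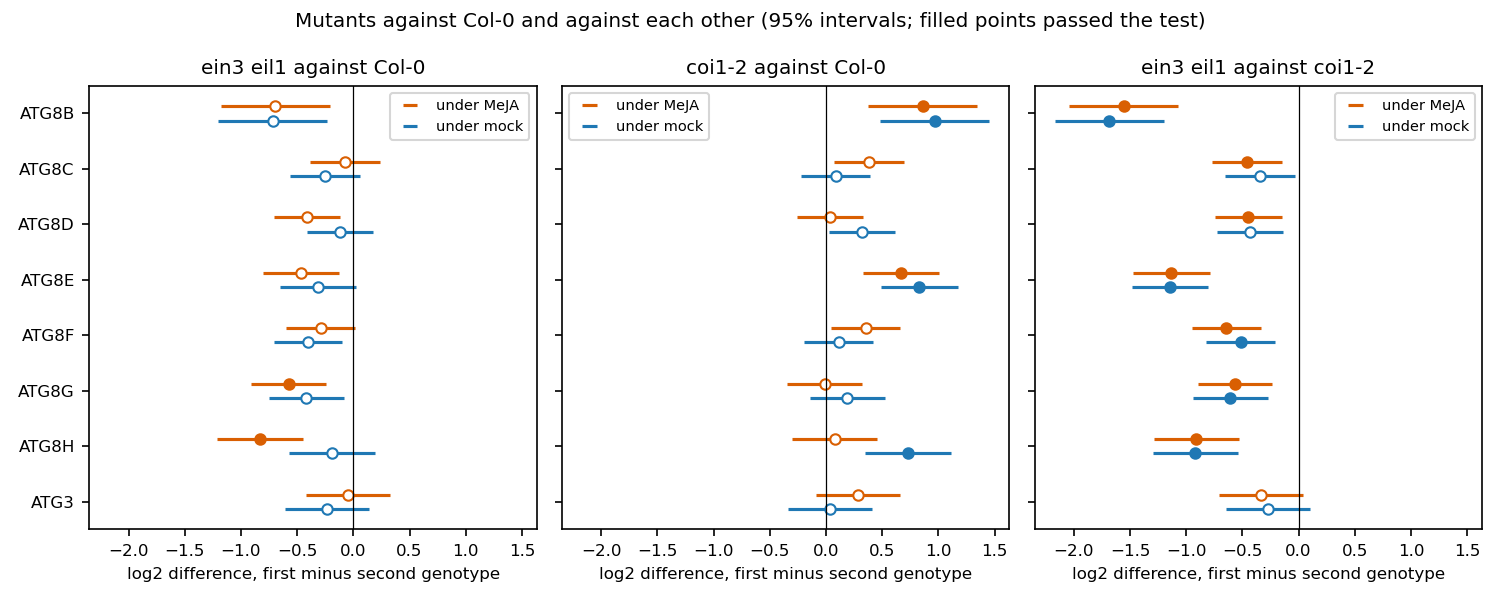
Log2 differences of each ATG gene between ein3 eil1 and Col-0, coi1-2 and Col-0, and ein3 eil1 and coi1-2, under MeJA and under mock, with unadjusted 95% intervals from limma (n = 2 arrays per group). Filled points passed the test, and in the comparison of ein3 eil1 with coi1-2 these are 7 of 8 genes under MeJA and 5 of 8 under mock, all below 0.

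The mutants were furthest from each other. With MeJA, all 7 ATG8 genes were lower in ein3 eil1 than in coi1-2 and ATG3 did not pass, 7 of 8 against 9.71% of all features called lower. Under mock 5 of 8 were lower, namely ATG8B, ATG8E, ATG8F, ATG8G and ATG8H, against 5.83% of all features. Among the 11294 features above the median level, where all 8 genes lie, 16.6% were called lower with MeJA and 9.08% under mock. ATG8B was −1.55 ± 0.22 lower with MeJA (log2, SE, n = 2 per group, 2.94-fold, adjusted p = 0.000366) and −1.68 ± 0.22 under mock (3.21-fold, adjusted p = 0.000221). ATG8E was at −1.13 ± 0.16 with MeJA (2.19-fold, adjusted p = 0.000273) and −1.15 ± 0.16 under mock (2.21-fold, adjusted p = 0.000284). ATG8H was at −0.91 ± 0.18 with MeJA (1.88-fold, adjusted p = 0.00298) and −0.92 ± 0.18 under mock (1.89-fold, adjusted p = 0.00336). The calls of these 3 genes held under every alternative tried, at both treatments.

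The smaller differences between the mutants were less firm. ATG8F was at −0.64 ± 0.14 with MeJA (SE, adjusted p = 0.00654) and −0.52 ± 0.14 under mock (0.0281), and ATG8G at −0.56 ± 0.15 (0.0214) and −0.61 ± 0.15 (0.0189). ATG8D was at −0.45 ± 0.14 with MeJA (adjusted p = 0.0376) and at −0.43 ± 0.14 under mock (adjusted p = 0.0545), where it passed with quantile normalization (0.0493), median centring (0.0183) and features above the median level only (0.0449). ATG8C was at −0.46 ± 0.14 with MeJA (adjusted p = 0.0432) and at −0.34 ± 0.14 under mock (adjusted p = 0.161). Its call with MeJA was lost with the replicate number as a block (adjusted p = 0.0528), with median centring (0.0545) and with the arrays of the contrast only (0.0699). The calls of ATG8D and ATG8G with MeJA were also lost with the arrays of the contrast only (adjusted p = 0.103 and 0.0687). ATG3 was at −0.33 ± 0.17 with MeJA (adjusted p = 0.236) and −0.27 ± 0.17 under mock (adjusted p = 0.394). The count of 7 with MeJA was 3 without coi1-2 MeJA replicate 1, 4 without coi1-2 MeJA replicate 2, 5 without ein3 eil1 MeJA replicate 1 and 6 without ein3 eil1 MeJA replicate 2. The count of 5 under mock was 3 without any 1 of its 4 arrays.

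Other genes of the pathway were taken from a list of 50 autophagy loci, which holds the 8 genes above. Of the other 42, 12 had a probe set annotated to that gene alone, by a symbol or a locus code. The cargo receptors and the ATG2, ATG9 and ATG18 group had none so annotated. Probe sets with no gene name or with several genes were not searched for the rest. ATG8a, listed as APG8A and thus outside the rule, had the genotype pattern of ATG8B and ATG8E. It was at 8.18 and 8.40 in ein3 eil1 with MeJA, against 9.04 and 8.86 in ein3 eil1 mock. In coi1-2 it was at 10.19 and 9.87 with MeJA, against 9.96 and 10.09 under mock. In Col-0 it was at 9.51 and 9.03 with MeJA, against 9.39 and 9.31 under mock. All coi1-2 arrays were above all Col-0 arrays, and ein3 eil1 with MeJA was below every other group. Between MeJA and mock in ein3 eil1 ATG8a differed by −0.66 ± 0.17 (SE, adjusted p = 0.0521), which did not pass. Between ein3 eil1 and coi1-2 it was at −1.73 ± 0.17 with MeJA (SE, n = 2 per group, adjusted p = 1.78e-05), and against Col-0 with MeJA ein3 eil1 was at −0.97 ± 0.17 (adjusted p = 0.00503). ATG8i, listed as APG8H, had differences from Col-0 of −0.46 to 0.14 in the mutants, and none passed.

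In Col-0, 1 of these 12 genes was called higher with MeJA, beside 4.56% of all features and 8.23% of those above the median level, so the count is near the background. It was ATG1b, a gene of the kinase that starts autophagy. It was at 5.80 and 5.75 with MeJA, against 4.98 and 5.18 under mock (0.70 ± 0.16, SE, adjusted p = 0.0165). It lay near the array medians (5.22 to 5.39), where part of the signal may be background. Between MeJA and mock 0 of the 12 were called in coi1-2 and 0 in ein3 eil1, beside 2.56% and 4.29% of all features. In coi1-2 under mock 3 of the 12 were above Col-0 and none below, beside 7.42% of all features called higher: ATG8a (0.68 ± 0.17, adjusted p = 0.0205), the ATG1 kinase gene ATG1a (0.50 ± 0.14, adjusted p = 0.0367) and ATG14a (0.59 ± 0.14, adjusted p = 0.015), a subunit of the lipid kinase complex. With MeJA 2 of the 12 were above Col-0 in coi1-2, beside 4.19% of all features, namely ATG8a (0.76 ± 0.17, adjusted p = 0.0164) and ATG14a (0.53 ± 0.14, adjusted p = 0.0401). Of the features above the median level 12% were called higher in coi1-2 under mock and 6.94% with MeJA. ATG14a was below the array median on every array, so the size of its difference is uncertain. In ein3 eil1 against Col-0, 0 of the 12 were called under mock and 1, ATG8a, with MeJA (3.2% and 2.56% of all features called lower). Of the features above the median level 4.52% were called lower at either treatment. Between the mutants, 5 of the 12 were lower in ein3 eil1 with MeJA (ATG8a, ATG14a, ATG1a, ATG101 and RAPTOR1, a partner of the TOR kinase that restrains autophagy) and 3 under mock (ATG8a, ATG1a and ATG14a). Of all features 9.71% were called lower with MeJA and 5.83% under mock, and of those above the median level 16.6% and 9.08%. Results under alternative settings are not given for these 12 genes. The protease gene ATG4b and ATG16, which joins the ATG12 conjugation system, passed in none of these comparisons.

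Markers of tissue were read on the same arrays. EXPA7, the root hair gene, was lower in coi1-2 than in Col-0 under mock (−0.86 ± 0.16, SE, adjusted p = 0.00345) and lower in ein3 eil1 than in Col-0 with MeJA (−1.03 ± 0.16, adjusted p = 0.00217). Within ein3 eil1, EXPA7 was lower with MeJA than under mock (−0.88 ± 0.16, adjusted p = 0.00835). The photosynthesis genes RCA and LHCB4.2 passed in none of the comparisons given here, with LHCB4.2 between −0.42 and −0.07 in the mutants relative to Col-0. Over both treatments EXPA7 was lower than in Col-0 in ein3 eil1 (−0.58 ± 0.11, adjusted p = 0.00438) and in coi1-2 (−0.68 ± 0.11, adjusted p = 0.00111). Under mock alone EXPA7 in ein3 eil1 did not pass against Col-0 (−0.13 ± 0.16, adjusted p = 0.708). With MeJA alone EXPA7 in coi1-2 did not pass either (−0.49 ± 0.16, adjusted p = 0.0938). Between the mutants it was higher in ein3 eil1 than in coi1-2 under mock (0.73 ± 0.16, adjusted p = 0.00898) and lower with MeJA (−0.54 ± 0.16, adjusted p = 0.0354). Whether the EXPA7 differences reflect root content or a response of the gene itself was not tested. The part of tissue composition in the ATG differences was not tested either.

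Over the 12 arrays ATG8E varied most closely with ATG8B and ATG8D. It correlated at 0.93 with ATG8B, 0.91 with ATG8D, 0.88 with ATG8F, 0.86 with ATG8C, 0.81 with ATG8G and 0.69 with ATG8H, and at 0.61 with ATG3 (Pearson's r, 12 arrays). ATG3 and ATG8H had the lowest value, 0.12. These values describe arrays that fall into 6 groups and share the genotype differences. The ATG8 probe sets read related sequences, all 8 probe set names end in the suffix for a set designed to 1 gene, and cross-hybridisation was not tested.

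Of 4767 other named genes with group means at least 0.5 apart, AT1G19530 (r = 0.98) and AT3G14280 (0.97) were most like ATG8E over the 12 arrays. They were followed by NANA (0.97), which encodes an aspartic protease, AT4G37240 (0.96), AT5G03320 (0.96) and AT1G51850 (0.96). AT1G19530 spanned a wider range. Its level was 8.45 on both ein3 eil1 arrays with MeJA, 12.01 and 11.93 on the coi1-2 mock arrays and 10.20 and 9.85 on the Col-0 mock arrays. The most opposite were AT2G35040 and FTSZ2-2, a plastid division gene, both at −0.97. FTSZ2-2 had levels of 6.85 and 6.67 on the ein3 eil1 arrays with MeJA, against 5.61 and 5.70 on the coi1-2 mock arrays. In all, 118 named genes correlated with ATG8E above 0.9, against 60 for ATG8B, 18 for ATG8H and 1 for ATG3.

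**Figure D4:**
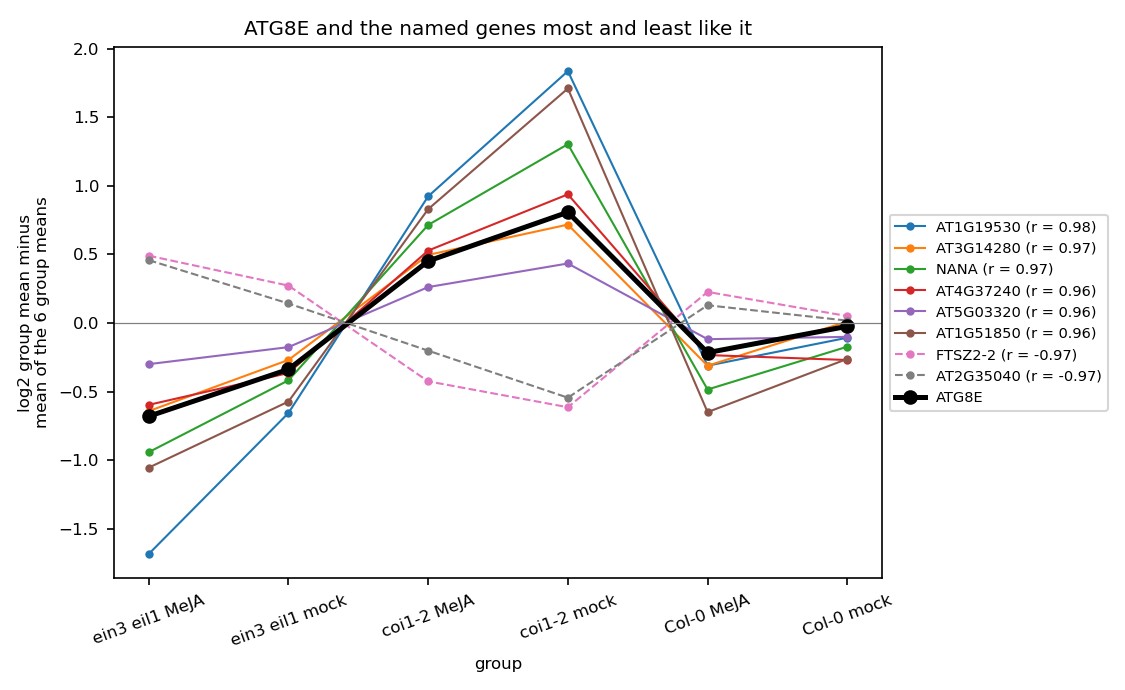
Group means of ATG8E (black) and of the named genes with the 6 highest (solid) and 2 lowest (dashed) correlations with it over 12 arrays, each shown as the log2 difference from the mean of its own 6 group means. Lines only join the groups of 1 gene. ATG8E and the 6 genes are highest in coi1-2 mock and lowest in ein3 eil1 with MeJA, and the dashed genes run the other way.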

How the data were processed

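The authors deposited a table of log2 expression values for 22810 ATH1 probe sets. RMA, Partek and Affymetrix Expression Console are named in the submitters' processing notes, with order and versions not given in the sources used here. Arrays normalized by RMA have much the same distribution, which hides any shift common to most genes. The array medians were 5.22 to 5.39. No build is stated, and no coordinates are printed.

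The 64 control probe sets were left out, and probe sets of one gene were averaged, leaving 22589 features. Names came from the platform annotation and loci from the TAIR10.1 gene table. limma 3.58.1 in R 4.3.3 fitted 6 group means to all 12 arrays (6 residual degrees of freedom, prior 6.24), and the procedure was tested on simulated data. Python 3.11.15, pandas 2.3.3 and matplotlib 3.10.9 were used. The members, gene lists and tests were chosen with earlier results of these data known. Named were all 8 members, called genes of the pathway list (up to 6 per comparison) and of the markers (up to 4), the 6 genes most and 2 least like ATG8E, and EIN3. None of 9 senescence and sugar starvation genes listed had a named probe set. Alternatives were other scalings, filters on dim features, eBayes with trend and robust, the arrays of the contrast only, a replicate block, single arrays left out, unaveraged probe sets and a threshold of 0.01. Background correction could not be varied without scanner files. Promoter motifs were not analysed here.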

Additional observations from a re-analysis of the deposited data

How the results depend on the processing

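The depth limit here is 2 arrays per group. None of the called differences of the 8 genes changed direction under an alternative. Of 936 single-gene results under settings other than leaving out single arrays, 896 kept their side of the threshold, 28 lost a call and 12 gained one. The 936 include genes not called in the main fit, which had no call to lose. They also include unaveraged probe sets, which leave the differences unchanged because each gene has 1 probe set. With 1 array left out, 474 of 544 kept their side, 64 lost a call and 6 gained one. Such a fit has fewer arrays, and whether an array itself is unusual was not tested.

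At a threshold of 0.01 the count was 0 for MeJA in Col-0 (1 at 0.05), 1 for coi1-2 against Col-0 under mock (3), 0 with MeJA (2), 0 for ein3 eil1 against Col-0 with MeJA (2) and 1 over both treatments (5), 2 for coi1-2 against Col-0 over both treatments (3), and 3 and 4 for ein3 eil1 against coi1-2 under mock (5) and with MeJA (7). For ein3 eil1 against Col-0 under mock, where 0 were called, centring arrays on their medians gave 3 (ATG8B, ATG8F and ATG8G), quantile normalization 2, trend and robust 2, and the arrays of the contrast only 1. For ein3 eil1 against coi1-2 under mock, quantile normalization, median centring and features above the median level only each gave 6, with ATG8D added. Centring also gave 6 for ein3 eil1 against coi1-2 with MeJA (7, without ATG8C) and 6 for ein3 eil1 against Col-0 over both treatments (5, with ATG8D added). It moved the median of all features in ein3 eil1 against Col-0 under mock to −0.15. With the arrays of the contrast only, ein3 eil1 against Col-0 with MeJA had 0, over both treatments 3, and ein3 eil1 against coi1-2 with MeJA 4. With trend and robust, ein3 eil1 against Col-0 with MeJA had 1.

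Leaving out 1 array at a time gave 0 for MeJA in Col-0 throughout. It gave 1 to 2 for coi1-2 against Col-0 under mock, 0 to 2 with MeJA and 2 to 3 over both treatments, and for ein3 eil1 against Col-0 0 to 1 under mock, 0 to 3 with MeJA and 1 to 4 over both treatments. It gave 0 to 1 for the ein3 eil1 interaction, 3 for ein3 eil1 against coi1-2 under mock and 3 to 6 with MeJA.

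The replicate numbers showed no uniform pairing: deviations of replicate 1 from the group mean correlated between groups at −0.22 to 0.23, above 0.1 in 4 of 15 pairs. A batch that does not follow the replicate numbers was not tested. With the replicate number as a block the count for ein3 eil1 against Col-0 with MeJA was 1 in place of 2, and for ein3 eil1 against coi1-2 with MeJA 6 in place of 7 (ATG8C lost), and it changed no other of these counts.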
